A study of Mus musculus with 20 samples.

Results

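The ATF4 integrated stress response was followed in the newborn mouse heart through 10 genes chosen by symbol: the transcription factor genes Atf4, Atf3, Atf5 and Ddit3, and Ddit4, Asns, Trib3, Chac1, Gdf15 and Ppp1r15a. These were 10 of the 55367 genes listed in the count tables, and all 10 were among the 16598 genes that passed the filter on low counts. The 10 genes and the gene lists used below were chosen with earlier results of these data known. Polyadenylated RNA was sequenced from left atria and left ventricles, taken on postnatal day 4 from pups of the C57BL/6J strain. The pups had breathed room air (21% oxygen) or pure oxygen (100%, hyperoxia) since birth, and their nursing dams were moved between both atmospheres every day. The 4 groups were the room-air left atrium, the hyperoxic left atrium, the room-air left ventricle and the hyperoxic left ventricle, with 5 libraries each, 20 in all. Each library came from 1 pup per the series description, and the labels name no engineered allele. Levels are counts per 1000000 counts of the scaled library size (CPM), given per library in order of replicate number and as mean ± SD (n = 5). Hyperoxic ventricles carry the numbers 1, 2, 4, 5 and 6.

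The integrated stress response begins when any of 4 kinases phosphorylates the alpha subunit of the initiation factor eIF2. General protein synthesis then slows, while translation of a few mRNAs with upstream open reading frames, among them Atf4, Atf5, Ddit3 and Ppp1r15a, is favoured. The ATF4 protein binds C/EBP-ATF response elements, often together with a C/EBP partner, and raises genes for amino acid supply, for further stress factors and for feedback. In heart muscle the response has been studied mostly after mitochondrial defects and ischemia, with GDF15 and FGF21 as its circulating products. RNA levels do not measure phosphorylation of eIF2 or ATF4 protein, so the values here describe the transcript side of the response.

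For all 10 members, the promoter windows of RefSeq (GRCm38.p6, 250 bases before and 50 after the annotated start) were read for 3 sets of letters on both strands. TGATGNAA, the letters of a C/EBP-ATF response element, were present in the windows of 4 of the 10 members, Atf3, Asns, Trib3 and Chac1, against 4.51% of 27025 genes. TTGCATCA, which overlaps with it because its reverse complement is a form of TGATGNAA, was present for 2 members, Atf3 and Chac1 (1.03% of genes). TGACGTCA, the cAMP response element that ATF dimers can also bind, was present for 1, Ppp1r15a (2.03% of genes). The match in Trib3 began at base 15 downstream of the start, and the other matches lay upstream, beginning 23 bases before the start in Asns, 12 in Ppp1r15a, 110 in Atf3 and 193 in Chac1. These distances are from the RefSeq start. By the GENCODE positions below, the matches in Asns and Atf3 lie inside the gene span, downstream of its start. The match in Trib3 lies outside the span by those positions, upstream of its start. A match in letters is a description of the window and does not show that a factor is bound. The stretches that hold the upstream matches are shown because these genes span the size range of the response below, with the matching letters in capitals, each read 5′ to 3′ on the strand of its gene. They lie at chr6:7693214-7693243 (Asns, minus strand), chr2:119350993-119351112 (Chac1, plus strand), chr1:191183380-191183499 (Atf3, minus strand) and chr7:45526269-45526388 (Ppp1r15a, minus strand).
Asns: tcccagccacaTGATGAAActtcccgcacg
Chac1: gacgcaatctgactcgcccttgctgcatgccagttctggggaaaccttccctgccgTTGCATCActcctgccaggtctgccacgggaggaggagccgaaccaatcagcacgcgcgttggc
Atf3: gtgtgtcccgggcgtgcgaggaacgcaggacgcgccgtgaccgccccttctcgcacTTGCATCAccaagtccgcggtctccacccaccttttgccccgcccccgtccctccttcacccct
Ppp1r15a: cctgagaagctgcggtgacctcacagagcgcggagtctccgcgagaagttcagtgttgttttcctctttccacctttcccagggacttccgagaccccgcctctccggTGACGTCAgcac

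In GRCm38, with positions from the GENCODE annotation, Atf4 lies at chr15:80255184-80257541, Atf5 at chr7:44812256-44816658, Atf3 at chr1:191170296-191218039 and Ddit3 at chr10:127290774-127296288. The enzyme and signal genes are Asns at chr6:7675169-7693254, Trib3 at chr2:152337422-152344032, Chac1 at chr2:119351229-119354381 and Gdf15 at chr8:70629393-70632456. The remaining regulators are Ddit4 at chr10:59949669-59951834 and Ppp1r15a at chr7:45522916-45526268. Exons of 3 members share bases with exons on the other strand: 82 in Atf5 (with Il4i1 and Nup62), 81 in Ddit3 (with Mars and Gm4189) and 12 in Ppp1r15a (with Tulp2). The strand setting of the counting was not given in the sources used here, so reads in those bases could belong to either gene.

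Library totals ran from 26510081 to 38244117 counts, and the groups differed in ways other than oxygen and chamber. All 10 room-air libraries held more Y-linked than Xist reads, whereas under oxygen this held for atrium 2 alone among 5 and for ventricles 2 and 6 among 5. In room air, Xist reads ranged from 0 to 27 a library. Some hyperoxic libraries held both kinds, such as atrium 1 (203 Y-linked and 30807 Xist reads) and ventricle 6 (5646 and 593). Sex is not in the labels, and oxygen was partly confounded with these reads. A length slope was fitted to each library. Log2 CPM, less the gene's mean over the libraries of the same chamber, was set against log2 exon length. A negative slope means relatively more reads from short genes than the chamber's mean, so the slope does not compare atria with ventricles. It was under -0.2 in 3 libraries, hyperoxic atria 2 (-0.295) and 4 (-0.29) and ventricle 4 of the room-air group (-0.225), and from -0.0704 to 0.136 in the others. These are called the 3 tilted libraries. Among the ventricles the slope ran from -0.225 to 0.025 in room air and from 0.0373 to 0.0988 in hyperoxia. These ranges did not overlap, so in the ventricle oxygen was partly confounded with the slope beyond the tilted library. The labelled chambers matched their defining genes, with Myl2 at means of 20400 and 15800 CPM in ventricles and 73.5 and 11.1 CPM in atria, but the atrial gene Myl7 reached 2.66 to 530 CPM in ventricles, lowest in the hyperoxic group (mean 38.9 against 231 CPM).

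In the hyperoxic atrium 9 of the 10 members rose, where 19.7% of all 16598 genes tested did (edgeR quasi-likelihood F-test, adjusted p under 0.05). The members' median log2 difference was 2.09, against -0.06 over all genes. Because the members were chosen with earlier results known, the shares over all genes are given as background and not as a test of the set. Increases ranged from 1.72-fold for Atf3 to 37.1-fold for Chac1, and 8 members passed with at least a 2-fold rise (4.72% of all genes). Ddit4 was the member that did not pass. For the same 9 members every hyperoxic library lay above every room-air library, which held in this direction for 13.6% of all genes. Marker genes of several cell types moved in the same samples, as given below.

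Among the transcription factors, Atf4, the central activator, had 166, 150, 142, 168 and 130 CPM in room-air atria and 381, 631, 441, 560 and 357 CPM in hyperoxic atria. The lowest hyperoxic library stood at more than the highest room-air one, and hyperoxic atria 2 and 4 were the highest. Atf4 rose 3.13-fold (log2 1.65, SE 0.15, adjusted p = 1.9e-08), from 151 ± 16 to 474 ± 118 CPM. Atf5, a relative that is itself under eIF2-dependent translational control, had 53.3, 49.0, 48.9, 51.2 and 49.2 CPM in room air and 127, 192, 128, 150 and 109 CPM in hyperoxia. Its room-air libraries were almost level, with a coefficient of variation of 3.78%, and library 2 again stood highest under oxygen. The rise was 2.81-fold (log2 1.49, SE 0.13, adjusted p = 8.4e-09). Ddit3, which encodes the pro-apoptotic factor CHOP, had 19.5, 20.2, 20.5, 21.3 and 14.8 CPM in room air and 79.1, 192, 80.1, 134 and 70.6 CPM in hyperoxia. Libraries 2 and 4 lay far above the other 3 hyperoxic atria, which gave Ddit3 the largest relative spread of the group (coefficient of variation 46.5%). Its increase was 5.77-fold (log2 2.53, SE 0.23, adjusted p = 2e-08). Atf3, a stress-induced factor that also answers to other pathways, showed the smallest rise of the 9. It had 13.6, 15.1, 16.1, 15.4 and 17.9 CPM in room air and 22.1, 36.0, 26.1, 27.4 and 22.5 CPM in hyperoxia, a 1.72-fold change (log2 0.78, SE 0.16, adjusted p = 0.00052).

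The genes downstream of the factors changed most. Asns, which makes asparagine from aspartate and glutamine, had 4.45, 4.14, 3.83, 4.86 and 4.22 CPM in room-air atria and 106, 155, 127, 151 and 125 CPM in hyperoxic atria. Both groups were tight beside the distance between them. The rise was 30.8-fold (log2 4.95, SE 0.25, adjusted p = 5.1e-12). Trib3, a pseudokinase that binds ATF4 and CHOP and dampens their activity, had 3.80, 2.52, 2.55, 2.92 and 3.67 CPM in room air and 68.9, 110, 74.1, 94.7 and 70.2 CPM in hyperoxia. It rose 27.1-fold (log2 4.76, SE 0.23, adjusted p = 3.1e-12), with libraries 2 and 4 again at the top. Chac1, which breaks down glutathione, was barely present in room air, at 0.482, 0.400, 0.469, 0.336 and 0.664 CPM, or 13 to 23 counts a library. In hyperoxia it had 14.3, 23.8, 16.5, 17.1 and 15.7 CPM, 535 to 841 counts. Chac1 thus moved from the edge of detection to a clear level, by 37.1-fold (log2 5.21, SE 0.42, adjusted p = 3.6e-09). Gdf15, a secreted stress cytokine that acts on appetite through a hindbrain receptor, had 1.90, 1.67, 1.61, 1.27 and 1.07 CPM in room air and 43.5, 61.7, 47.6, 60.3 and 33.2 CPM in hyperoxia. Its lowest hyperoxic library was far above all room-air atria, and the rise was 32.6-fold (log2 5.03, SE 0.25, adjusted p = 3.1e-12). By log2 difference among the 16598 genes, Chac1 ranked 11, Gdf15 14, Asns 15 and Trib3 20 from the top, and Ddit3 110.

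Ppp1r15a and Ddit4, both regulators that limit protein synthesis or restore it, differed from each other. Ppp1r15a encodes GADD34, which brings phosphatase to eIF2 and so closes the feedback loop. It had 53.8, 55.0, 51.9, 48.4 and 68.3 CPM in room-air atria and 136, 164, 155, 145 and 126 CPM in hyperoxic atria. The hyperoxic libraries were close together (coefficient of variation 10.3%), with tilted library 2 highest and tilted library 4 in the middle. Ppp1r15a rose 2.62-fold (log2 1.39, SE 0.12, adjusted p = 6.5e-09). Ddit4, known as REDD1, an inhibitor of mTORC1 that also responds to hypoxia and glucocorticoids, had 23.5, 27.3, 21.4, 30.1 and 23.9 CPM in room air. Its hyperoxic values, 31.8, 22.6, 26.9, 23.5 and 23.3 CPM, fell across the same range, with 1 of 5 libraries above the highest room-air atrium. The difference in Ddit4 did not pass (log2 0.02, SE 0.21, adjusted p = 0.94).

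**Figure D1:**
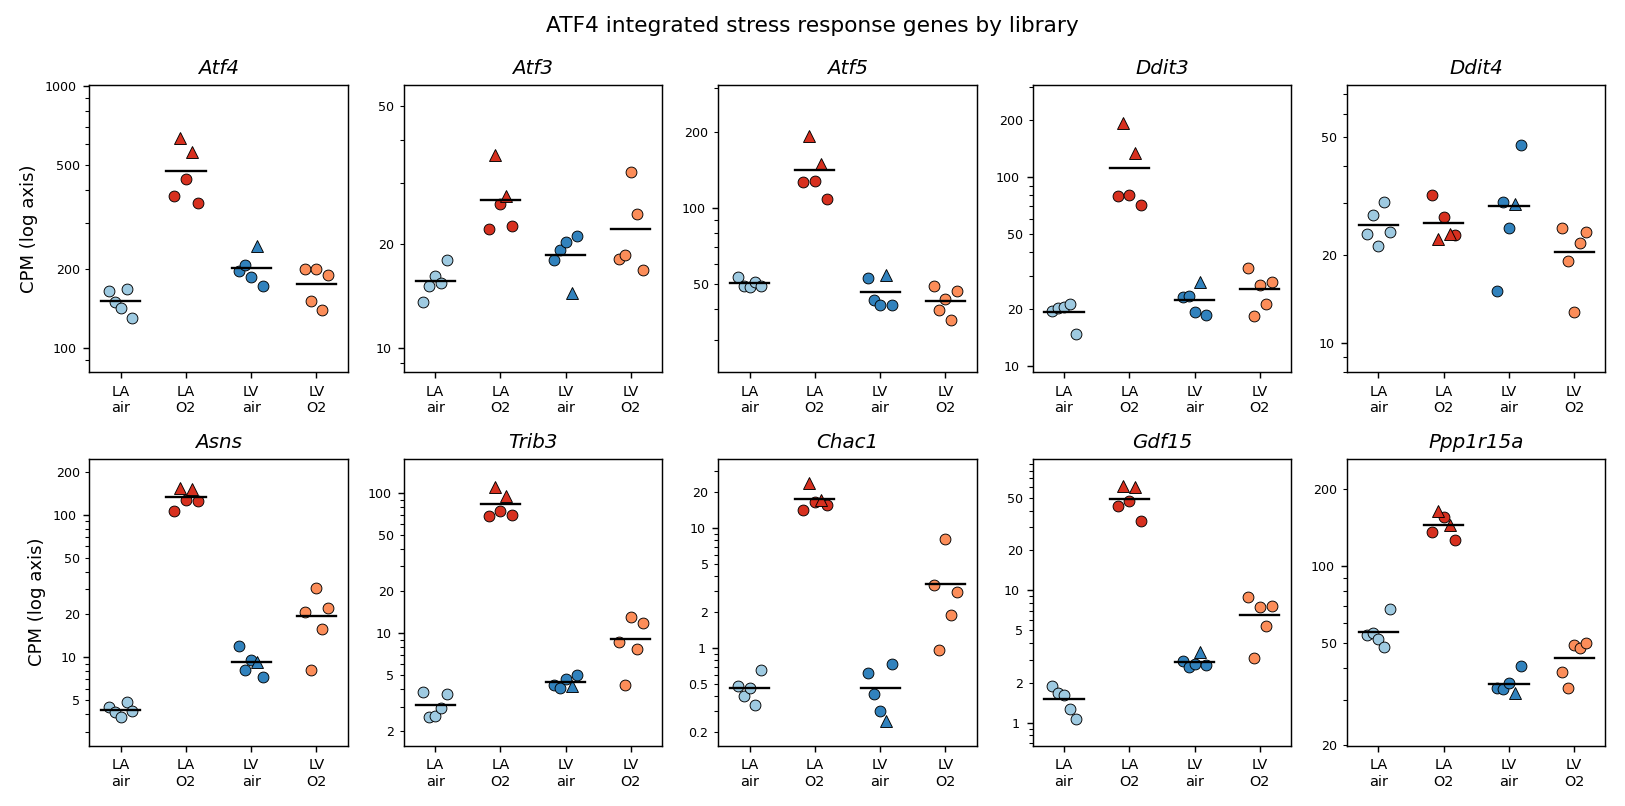
CPM on a log axis for each of the 10 genes in the left atrium (LA) and left ventricle (LV), in room air (air) and hyperoxia (O2). Each point is a library, triangles are the 3 tilted libraries and bars are group means. In 9 panels all 5 hyperoxic atria lie above all room-air atria, Ddit4 being the exception.

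Several of the values above moved with the length slope. In the 3 hyperoxic atria without the tilt, Atf4 spanned 357 to 441 CPM, Atf5 109 to 128 CPM and Ddit3 70.6 to 80.1 CPM, all above their room-air ranges. With the 3 tilted libraries left out, the fold was 2.6 for Atf4, 2.41 for Atf5 and 3.98 for Ddit3, while it was 27.7 for Asns, 23.1 for Trib3, 32.9 for Chac1 and 27.5 for Gdf15. All 7 passed, with the highest adjusted p at 1.1e-07 for Chac1. After centring on the group means, the Pearson correlation of log2 CPM with the slope over 20 libraries was -0.84 for Atf4, -0.84 for Ddit3 and -0.8 for Atf5, but -0.01 for Chac1, -0.04 for Ppp1r15a and -0.1 for Atf3. Asns (-0.28), Trib3 (-0.32) and Gdf15 (-0.46) lay between, and the points share their depth and scaling. In a fit adjusted for the slope and for Y-linked reads together, Atf3 no longer passed (log2 0.58, SE 0.26, adjusted p = 0.11) and Ddit3 was 3.84-fold higher. With the libraries restricted to those with more Y-linked than Xist reads, which leaves 1 hyperoxic atrium, itself tilted and assumed to vary like the other groups, Ddit3 was 9.95-fold higher and the 9 members passed.

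**Figure D2:**
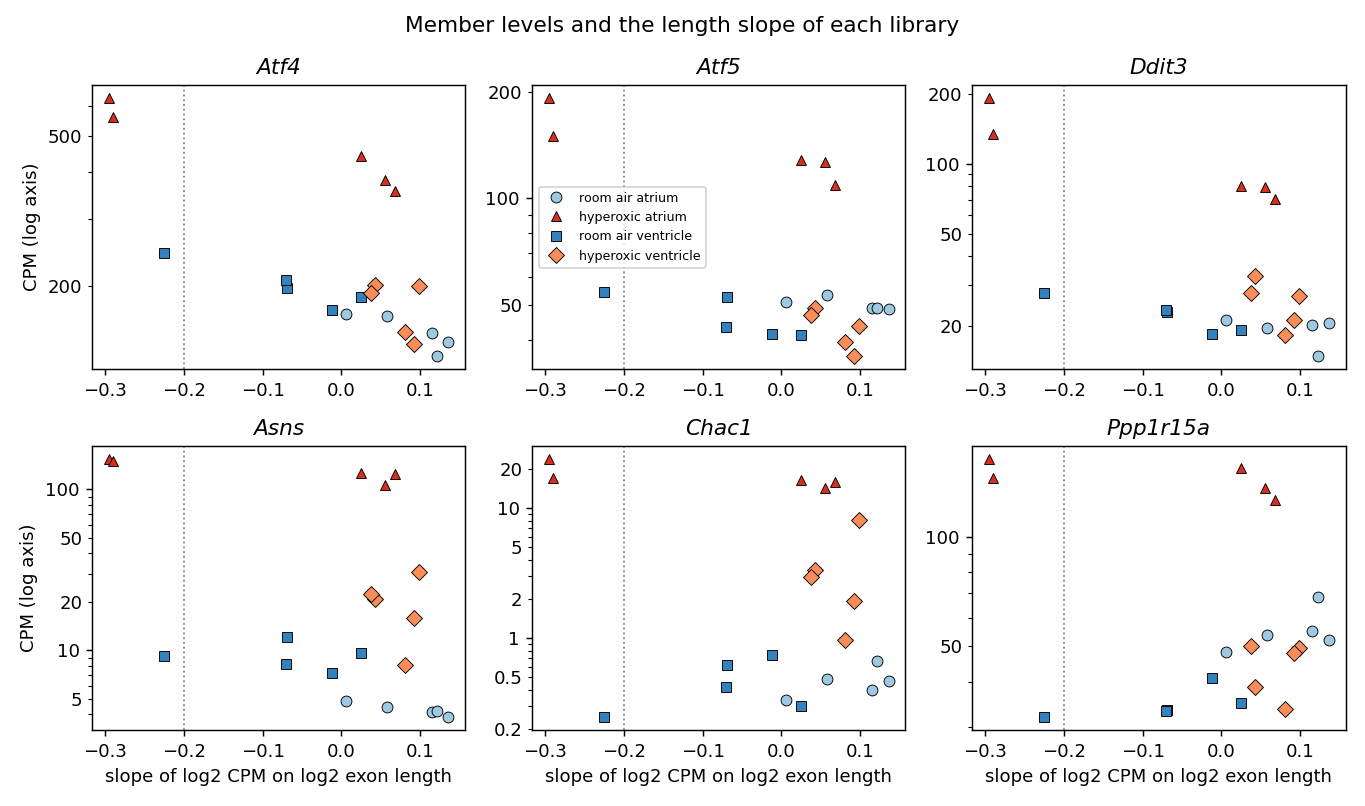
CPM (log axis) of 6 member genes against the length slope of each of the 20 libraries, with the dotted line at -0.2. For Atf4, Atf5 and Ddit3 the hyperoxic atria to the left of the line are the highest of their group, while all hyperoxic atria lie above all room-air atria in each panel.

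Marker lists of other cell types moved in the hyperoxic atria as well, and in bulk tissue fewer cells of a type and less RNA per cell cannot be told apart. Of the endothelial markers 6 of 6 fell, with a summed level of 826 to 995 CPM in room air and 494 to 719 CPM in hyperoxia. Fibroblast markers fell for 5 of 6 and rose for 1 (3640 to 4270 against 1860 to 2420 CPM), and smooth muscle and pericyte markers fell for 3 of 5. Macrophage markers rose for 4 of 5 (128 to 137 against 166 to 295 CPM), and neutrophil markers for 3 of 4 tested, at sums of 1.79 to 3.44 against 2.02 to 8.41 CPM. Ventricular cardiomyocyte markers fell for 3 of 4 (472 to 902 against 383 to 774 CPM), with Myl2 at means of 73.5 and 11.1 CPM. General cardiomyocyte markers fell for 2 of 6 and rose for 1, and endocardial markers fell for 2 of 3 and rose for 1. Among epicardial markers 1 of 4 rose. Of 5 atrial cardiomyocyte markers 1 rose and 1 fell. Their sum, 18000 to 23200 CPM in room air and 26000 to 50300 CPM in hyperoxia, followed mostly Nppa (means 6790 and 20900 CPM), while Myl7 was at 7010 and 7350 CPM and Sln at 487 and 330 CPM. In the hyperoxic ventricles 2 of these 5 atrial markers fell, with sums of 1040 to 1950 CPM in room air and 234 to 852 CPM in hyperoxia. There 2 of 6 endothelial markers, 1 of 5 smooth muscle and pericyte markers, 1 of 4 epicardial markers and 1 of 5 erythroid markers also fell, the erythroid sum being 1520 to 2480 against 804 to 1100 CPM. Markers that rose in the hyperoxic ventricles were 1 of 5 for macrophages, 1 of 6 for cardiomyocytes, 1 of 4 for ventricular cardiomyocytes and 1 of 3 for endocardium. The part of these shifts in the members' changes was not tested.

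In the hyperoxic ventricle 4 of the 10 members rose, against 5.64% of all genes tested. These were Asns, Trib3, Chac1 and Gdf15, and all 4 were at least 2-fold higher (0.524% of all genes). None of the 4 ATF4-family and CHOP factor genes passed, and the median over members was log2 0.29, against -0.01 over all genes. No member fell, where 5.28% of all genes did, though Ddit4 was lower at an unadjusted p of 0.022 (edgeR).

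Chac1 had 0.625, 0.418, 0.299, 0.246 and 0.742 CPM in room-air ventricles, 6 to 20 counts a library, and 3.35, 0.968, 8.14, 1.91 and 2.96 CPM in hyperoxic ventricles 1, 2, 4, 5 and 6. All 5 hyperoxic libraries lay above the highest room-air one, with number 4 far out, and Chac1 was the single member without overlap (6.51% of all genes were higher without overlap). The rise was 7.34-fold (log2 2.88, SE 0.43, adjusted p = 0.00053), and log2 2.3 without hyperoxic ventricle 4. For Asns the room-air ventricles had 12.1, 8.20, 9.64, 9.20 and 7.27 CPM and the hyperoxic ones 20.7, 8.13, 30.9, 15.8 and 22.3 CPM. Number 2 stayed within the room-air range and the other 4 were above it. Asns rose 2.11-fold (log2 1.08, SE 0.22, adjusted p = 0.0056). Trib3 gave 4.29, 4.06, 4.72, 4.19 and 5.05 CPM against 8.69, 4.26, 13.1, 7.66 and 11.9 CPM, and Gdf15 gave 2.93, 2.62, 2.76, 3.41 and 2.71 CPM against 8.84, 3.06, 7.52, 5.39 and 7.57 CPM. In both genes hyperoxic ventricle 2 again lay inside the room-air range, and the other 4 lay above it. Trib3 was 2.04-fold higher (log2 1.03, SE 0.22, adjusted p = 0.0067) and Gdf15 2.25-fold higher (log2 1.17, SE 0.23, adjusted p = 0.0036).

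The factor genes overlapped between the ventricular groups. Atf4 had 197, 207, 187, 245 and 173 CPM in room air and 201, 151, 200, 140 and 191 CPM in hyperoxia, so no hyperoxic ventricle exceeded the highest room-air one (log2 -0.19, SE 0.15, adjusted p = 0.39). Atf5 was at 46.7 ± 6.45 and 43 ± 5.41 CPM (log2 -0.12, SE 0.13, adjusted p = 0.56). For Ddit3 the room-air values of 23.0, 23.5, 19.3, 27.6 and 18.5 CPM and the hyperoxic values of 32.8, 18.3, 26.8, 21.3 and 27.6 CPM interleaved. Its difference did not pass (log2 0.18, SE 0.22, adjusted p = 0.61), though it did with the length slope as a covariate (log2 0.61, adjusted p = 0.0041). The slopes of the ventricular groups did not overlap, so that fit cannot fully separate slope from oxygen. Atf4, Atf5 and Ddit3 followed the slope within groups (r of -0.84, -0.8 and -0.84), so their ventricular differences are partly confounded with it. Atf3 was at 18.6 ± 2.61 and 22 ± 6.46 CPM, with hyperoxic ventricle 4 highest at 32.3 CPM (adjusted p = 0.32). Ppp1r15a, the phosphatase regulator, had 33.4, 33.1, 35.0, 31.9 and 40.8 CPM in room air and 38.7, 33.6, 49.4, 47.9 and 50.2 CPM in hyperoxia. Hyperoxic ventricles 4, 5 and 6 lay above the room-air range, and the test missed the threshold (log2 0.34, SE 0.12, adjusted p = 0.061). It passed without room-air ventricle 5 (adjusted p = 0.042), without hyperoxic ventricle 2 (0.022) or without hyperoxic atrium 2 (0.049). Ddit4, the mTORC1 inhibitor, had 15, 30.1, 24.6, 29.8 and 47.0 CPM in room air and 24.6, 19, 12.8, 21.9 and 23.8 CPM in hyperoxia. The room-air ventricles were its widest group, and the difference of log2 -0.52 (SE 0.21, adjusted p = 0.1) passed only when room-air ventricle 1 was left out (log2 -0.68, adjusted p = 0.03).

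The 4 ventricular calls changed when sex-linked reads or the atrial marker were taken into account. With only those libraries that held more Y-linked than Xist reads, which keeps hyperoxic ventricles 2 and 6, Chac1 passed (log2 2.07, adjusted p = 0.018), while Asns (log2 0.71, 0.15), Trib3 (log2 0.85, 0.11) and Gdf15 (log2 0.88, 0.088) did not. With Myl7 as a covariate among the ventricles, none passed: log2 2.73 for Chac1 (adjusted p = 0.077), 1.22 for Gdf15 (0.081), 1.03 for Asns (0.14) and 0.87 for Trib3 (0.15). That fit called 96 genes of all tested. With Y-linked reads as a covariate, Asns did not pass (log2 0.92, adjusted p = 0.081) and the other 3 did.

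The response of the atrium minus that of the ventricle was tested as 1 contrast, and it was positive for 8 members, against 17% of all genes. Asns had the largest difference (log2 3.87, SE 0.32, adjusted p = 5e-08), followed by Gdf15 (log2 3.86, SE 0.32, adjusted p = 5.5e-08) and Trib3 (log2 3.73, SE 0.31, adjusted p = 5e-08). Among the factors, Ddit3 differed by log2 2.34 (SE 0.32, adjusted p = 1.5e-05), Atf4 by 1.84 (SE 0.21, adjusted p = 2e-06) and Atf5 by 1.61 (SE 0.18, adjusted p = 1.6e-06). Chac1, the member with the largest rise in both chambers, differed by log2 2.34 (SE 0.61, adjusted p = 0.0057), and its difference no longer passed with the length slope as a covariate (log2 2.13, adjusted p = 0.087). Ppp1r15a differed by log2 1.05 (SE 0.16, adjusted p = 6.8e-05). Neither Atf3 (log2 0.54, SE 0.23, adjusted p = 0.071) nor Ddit4 (log2 0.54, SE 0.3, adjusted p = 0.16) passed. Atf3 did pass without hyperoxic ventricle 4 (log2 0.71, adjusted p = 0.009), without hyperoxic ventricle 5 (0.045), without room-air ventricle 4 (0.044), or without hyperoxic atria 1 (0.046) or 5 (0.05), with upper-quartile scaling (0.047), with a 1 CPM filter (0.04) and in the libraries richer in Y-linked than in Xist reads (log2 1.28, 0.00057). Ddit4 passed without room-air ventricle 1 (log2 0.71, adjusted p = 0.035).

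**Figure D3:**
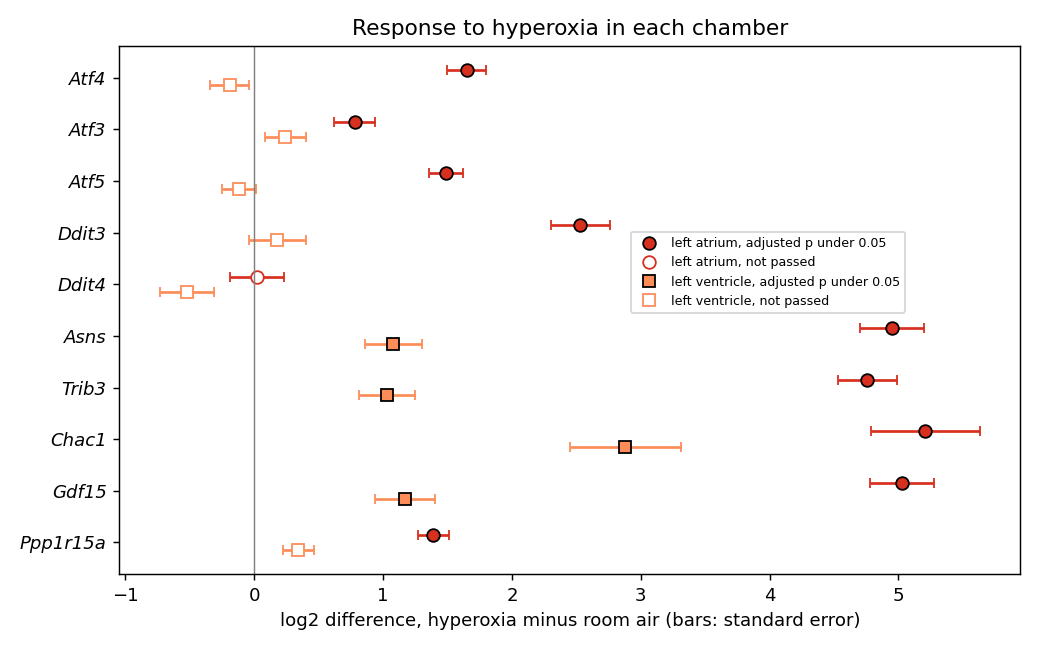
Log2 difference between hyperoxia and room air for each gene in the left atrium (circles) and left ventricle (squares), with bars of 1 standard error; filled symbols passed the edgeR test at an adjusted p under 0.05. Asns, Trib3, Chac1 and Gdf15 stand near log2 5 in the atrium and between 1.03 and 2.88 in the ventricle.

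In room air the chambers differed in many genes. Among the members 1 was higher in the atrium than in the ventricle (28.7% of all genes were) and 3 were lower (26.3%), which does not set the members apart. Ppp1r15a was the higher one, 1.59-fold (log2 0.67, SE 0.12, adjusted p = 4.3e-05). Asns was 2.16-fold lower in the atrium (log2 -1.11, SE 0.23, adjusted p = 0.00037), Gdf15 1.91-fold lower (log2 -0.93, SE 0.25, adjusted p = 0.0028) and Atf4 1.33-fold lower (log2 -0.41, SE 0.15, adjusted p = 0.02). The Atf4 difference did not pass without room-air atrium 5 (log2 -0.36), without room-air ventricle 4 (log2 -0.34) or with the length slope as a covariate (log2 -0.11, adjusted p = 0.32). The slope is relative to each chamber, so that fit cannot adjust for a length difference between the chambers. Trib3 was close to the threshold (log2 -0.53, SE 0.23, adjusted p = 0.051) and passed in 13 of 33 other settings, with adjusted p from 0.0067 to 0.33 over the 33. Without overlap, 1 member lay higher in the room-air atrium (Ppp1r15a; 25.1% of all genes) and 4 lower (Asns, Gdf15, Atf4 and Trib3; 21.4%). In hyperoxia 8 members were higher in the atrium (25.2% of all genes), by 2.69-fold for Atf4, 3.28-fold for Atf5, 3.31-fold for Ppp1r15a, 4.38-fold for Ddit3, 5.07-fold for Chac1, 6.78-fold for Asns, 7.58-fold for Gdf15 and 9.19-fold for Trib3. The highest adjusted p of these 8 was 7.1e-06, for Chac1, and none of the 8 overlapped between chambers (16.6% of all genes were higher without overlap). Atf3 (adjusted p = 0.15) and Ddit4 (0.21) did not pass, though Atf3 did without hyperoxic ventricle 4 (log2 0.46, adjusted p = 0.012).

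The order of the 4 groups was not the same for every member. Asns, Gdf15 and Trib3 ran from the room-air atrium through the room-air ventricle and the hyperoxic ventricle to the hyperoxic atrium. Their room-air groups did not overlap, and the ventricular groups overlapped through hyperoxic ventricle 2. Atf4 ran from the room-air atrium (151 CPM) through the hyperoxic ventricle (176) and the room-air ventricle (202) to the hyperoxic atrium (474), and its lower neighbours overlapped. Atf5 and Ddit3 stood clearly apart in the hyperoxic atrium, while their other 3 groups, at means of 43 to 50.3 CPM and 19.3 to 25.4 CPM, overlapped. Ppp1r15a was ordered room-air ventricle, hyperoxic ventricle, room-air atrium, hyperoxic atrium, and the hyperoxic ventricle overlapped with both of its neighbours. Chac1 was level in both room-air chambers (0.47 and 0.466 CPM), higher in the hyperoxic ventricle (3.47) and highest in the hyperoxic atrium (17.5). Atf3 ran from 15.6 to 26.8 CPM in the order of Asns, with all neighbours overlapping. Ddit4 showed no separated group. Per kilobase of exon, Atf4 was the most abundant member in every group, at 64.2 CPM per kb in the room-air atrium and 201 in the hyperoxic atrium. Asns went from 1.57 to 48.5 CPM per kb, a level next to that of Ppp1r15a (18.9 to 49.5), and Chac1 stayed the lowest of the 10 under oxygen at 10.7.

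Within groups the members varied together in part. Hyperoxic atrium 2, which is tilted and the hyperoxic atrium with more Y-linked than Xist reads, was the highest of its group for 9 of 10 members. Hyperoxic ventricle 2 was the lowest of its group for 6 members, Ddit3, Asns, Trib3, Chac1, Gdf15 and Ppp1r15a, and it too held more Y-linked reads. After centring on the group means, the 45 pairs of members had Pearson r from -0.41 to 0.92 over 20 libraries (median 0.45), as a description of libraries that share depth and scaling. The highest were Atf4 with Ddit3 (0.92), Atf4 with Atf5 and Atf5 with Ddit3 (both 0.88), the same 3 genes that followed the length slope. Next came Asns with Trib3 (0.82) and Trib3 with Chac1 (0.78). Ddit4 had values of -0.41 to 0.05 with the other 9 members.

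**Figure D4:**
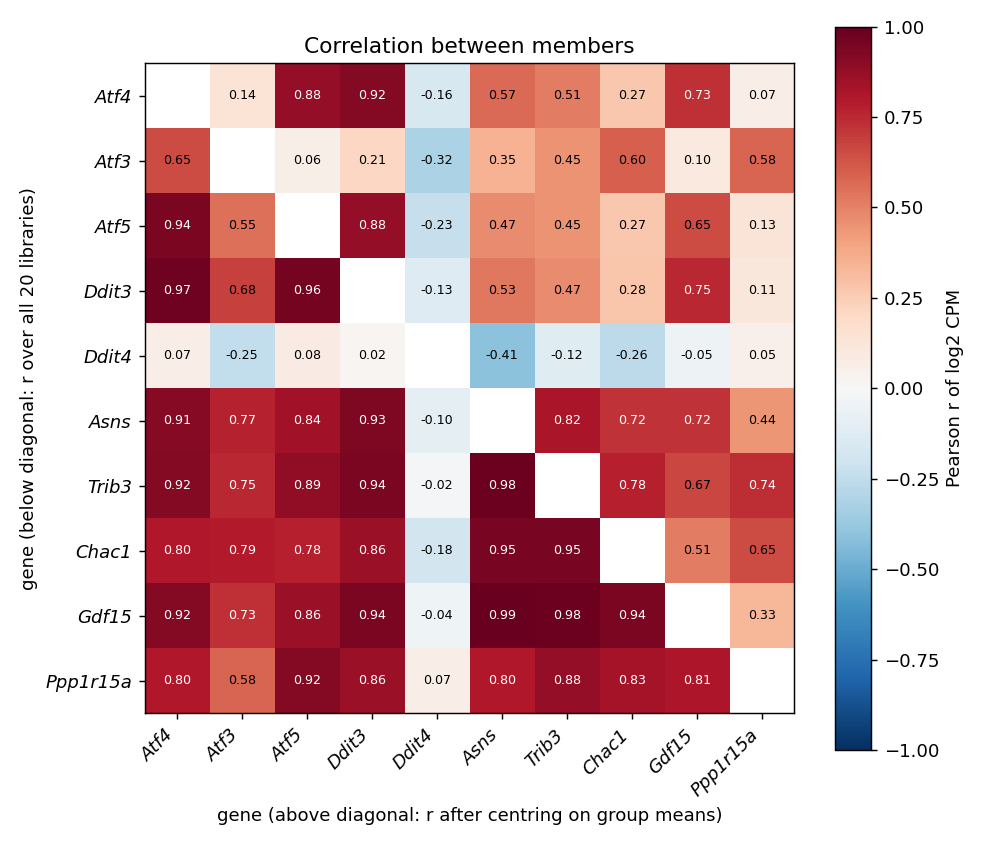
Pearson r of log2 CPM between the 10 genes, over all 20 libraries below the diagonal and after centring on group means above it. Ddit4 is near or below 0 with the other genes on both sides of the diagonal, and Atf4, Atf5 and Ddit3 form the block of highest values above the diagonal.

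The genes most like the members' mean pattern, by Pearson r over the 20 libraries among 11399 candidate genes, were the seryl-tRNA synthetase gene Sars (0.9805), the chaperonin subunit gene Cct2 (0.977), Cyb5r1 (0.9758), the mitochondrial folate enzyme gene Mthfd2 (0.9724) and the serine hydroxymethyltransferase gene Shmt2 (0.967). After centring on group means, their r was 0.64, 0.73, 0.49, 0.53 and 0.3. These 5 rose in the atrium by log2 0.8 (Cct2) to 3.01 (Mthfd2).

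Genes around the members were counted by list, beside 19.7% of all genes higher and 24.2% lower in the hyperoxic atrium, and 5.64% and 5.28% in the ventricle. The balance of these shares turned with some settings, for example to 3863 genes higher and 3210 lower in the atrium with a 1 CPM filter (3271 and 4020 as fitted). Upstream, none of the 4 eIF2 kinase genes passed in either chamber: in the atrium Eif2ak3, which encodes the ER stress kinase PERK, was at log2 -0.41 (adjusted p = 0.062), Eif2ak1 (HRI) at -0.11, Eif2ak2 (PKR) at -0.05 and Eif2ak4 (GCN2) at 0. By unadjusted p in edgeR, 1 of the 4 was lower in the atrium and 1 higher in the ventricle; DESeq2 called 0 in both chambers, and limma called 1 lower in the atrium. The response of Eif2ak3 (log2 -0.66, adjusted p = 0.044) and of Eif2ak1 (log2 -0.36, adjusted p = 0.026) was lower in the atrium than in the ventricle. Of the 18 genes of the kinases and the eIF2 machinery 8 rose in the atrium and none fell, among them the eIF2 and eIF2B subunit genes Eif2b3 (log2 1.23), Eif2s2 (0.96) and Eif2s1 (0.8). In the ventricle 2 rose, Eif2s3x (log2 0.59, adjusted p = 0.043) and Eif2s1 (log2 0.25, adjusted p = 0.045). Eif2s3x is the X-linked counterpart of Eif2s3y, 1 of the Y-linked genes counted here, and those reads were partly confounded with oxygen. The atrial count was 5 after adjusting for Y-linked reads plus slope. Other bZIP factors split, with 9 of 22 higher and 6 lower in the atrium, and 4 and 3 in the ventricle. In the atrium they numbered 6 higher and 5 lower without the 3 tilted libraries, and 5 and 2 after adjusting for Y-linked reads plus slope. Cebpb, a dimer partner of ATF4 and CHOP, rose from 7.73 ± 0.79 to 28.1 ± 12 CPM in the atrium (log2 1.86, adjusted p = 3.3e-06). Cebpg, another partner, rose by log2 1.26, and Jun fell by 0.97. In the ventricle Cebpb was at log2 -0.65 and did not pass (adjusted p = 0.092), and the test of the difference between chambers passed (log2 2.51, adjusted p = 2.5e-05).

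Listed ATF4 targets of amino acid supply moved 1 way in the hyperoxic atrium. The lists for tRNA, synthesis and transport held such targets, not all genes of their kind. All 13 listed genes that charge or export tRNA rose (3 of 13 in the ventricle), with Sars from 88.1 to 290 CPM, Eprs from 125 to 313 CPM and the exporter Xpot from 53.5 to 104 CPM. Of the 12 genes listed for amino acid synthesis and one-carbon metabolism 11 rose (2 in the ventricle). Mthfd2 went from 14.8 ± 2.14 to 120 ± 13 CPM (log2 3.01, adjusted p = 8.9e-11), and Psat1, of serine synthesis, from 35.6 to 78.3 CPM. Of the 9 listed transporter genes 7 rose (1 in the ventricle), with Slc7a3, a cationic amino acid transporter, at log2 3.47 in the atrium and 2.61 in the ventricle. Slc7a5 and Slc3a2, the chains of 1 large neutral amino acid exchanger, rose by log2 1.53 and 1.25 in the atrium. Next to ASNS, 3 of 6 genes of asparagine and glutamine metabolism rose in the atrium, by no more than log2 0.63 (Asnsd1), and none passed in the ventricle (edgeR; 2 were lower by unadjusted p, 1 with DESeq2 and 0 with limma). The atrial count was 0 of 6 after adjusting for Y-linked reads plus slope. In ventricles with more Y-linked reads than Xist reads, and in the fit with Myl7, the ventricular counts of genes that rose were 0 in the tRNA, synthesis and transport lists, and also in the lists of eIF2, other targets, mTORC1, mitochondrial and p53 genes described here.

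Other known ATF4 and CHOP targets were mixed, with 8 of 14 higher and 3 lower in the atrium, and 3 and 1 in the ventricle. Fgf21, a secreted hormone, rose from 0.137 ± 0.0503 to 4.96 ± 2 CPM in the atrium (log2 5.14, adjusted p = 9.7e-08) and from 0.0541 ± 0.0605 to 0.583 ± 0.425 CPM in the ventricle (log2 3.4, adjusted p = 0.0044), both at low counts in room air. Sesn2, a leucine sensor that restrains mTORC1, rose by log2 2.51 in the atrium and 0.65 in the ventricle. Ddit4 lay apart from Sesn2 in the atrium, and its paralog Ddit4l fell from 73.8 ± 4.83 to 23 ± 5.26 CPM (log2 -1.69, adjusted p = 8.1e-08). Of the 10 mTORC1 genes 1 rose and 3 fell, Ddit4l, Sesn3 and Deptor being those that fell. Beside Trib3, its paralogs Trib1 (log2 -0.17, adjusted p = 0.23) and Trib2 (log2 -0.27, adjusted p = 0.0077) did not rise, and Trib2 did not pass without the 3 tilted libraries. Of 8 tested genes of glutathione synthesis and breakdown, next to Chac1, 3 rose and 1 fell in the atrium, with Gss, a synthesis enzyme, at log2 0.93. None passed in the ventricle with edgeR or limma, where 1 was higher and 2 lower by unadjusted p, and DESeq2 called 1 higher and 1 lower. For GDF15, its receptor gene Gfral had 0 counts in all 20 libraries, which allows up to 0.00468 CPM over the 20 together, and the co-receptor gene Ret did not pass in either chamber.

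The other stress branches differed. Among 20 genes of the ATF6 and XBP1 branches of the unfolded protein response none rose and 4 fell in the atrium with edgeR, 1 being higher by unadjusted p and with DESeq2. None passed in the ventricle with edgeR or limma, where 1 was higher and 4 lower by unadjusted p, and DESeq2 called 1 higher and 2 lower. Hspa5, which encodes the chaperone BiP, was at 693 ± 68.1 and 728 ± 50.7 CPM in the atrium (log2 0.07, SE 0.098, adjusted p = 0.59), while Sel1l, Calr and Syvn1 fell by 0.47, 0.42 and 0.49 on the log2 scale. In contrast, 7 of 10 genes of mitochondrial chaperones and proteases rose in the atrium and 4 of 10 in the ventricle, none falling, with Hspa9 at log2 1.32, Hspd1 at 1.24 and Afg3l2 at 1 in the atrium. All 10 listed p53 targets, a list kept because Gdf15 is also a p53 target, rose in the atrium and 3 in the ventricle. Cdkn1a, the cell cycle inhibitor p21, rose from 45.4 ± 3.17 to 238 ± 24 CPM in the atrium and was at log2 -0.05 in the ventricle (adjusted p = 0.8). In the promoter windows, where 4.51% of all genes held the letters TGATGNAA, these occurred for 5 of 9 tRNA genes with a window, 3 of 11 synthesis genes, 2 of 6 transporters and 4 of 10 other targets. They occurred for 1 of 14 eIF2 genes, 1 of 18 other bZIP genes, and 0 of 18 ATF6 and XBP1 genes, 0 of 8 mitochondrial genes, 0 of 9 mTORC1 genes and 0 of 8 p53 targets. Lists of this size are too short to tell 0 from the share over all genes.

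**Figure D5:**
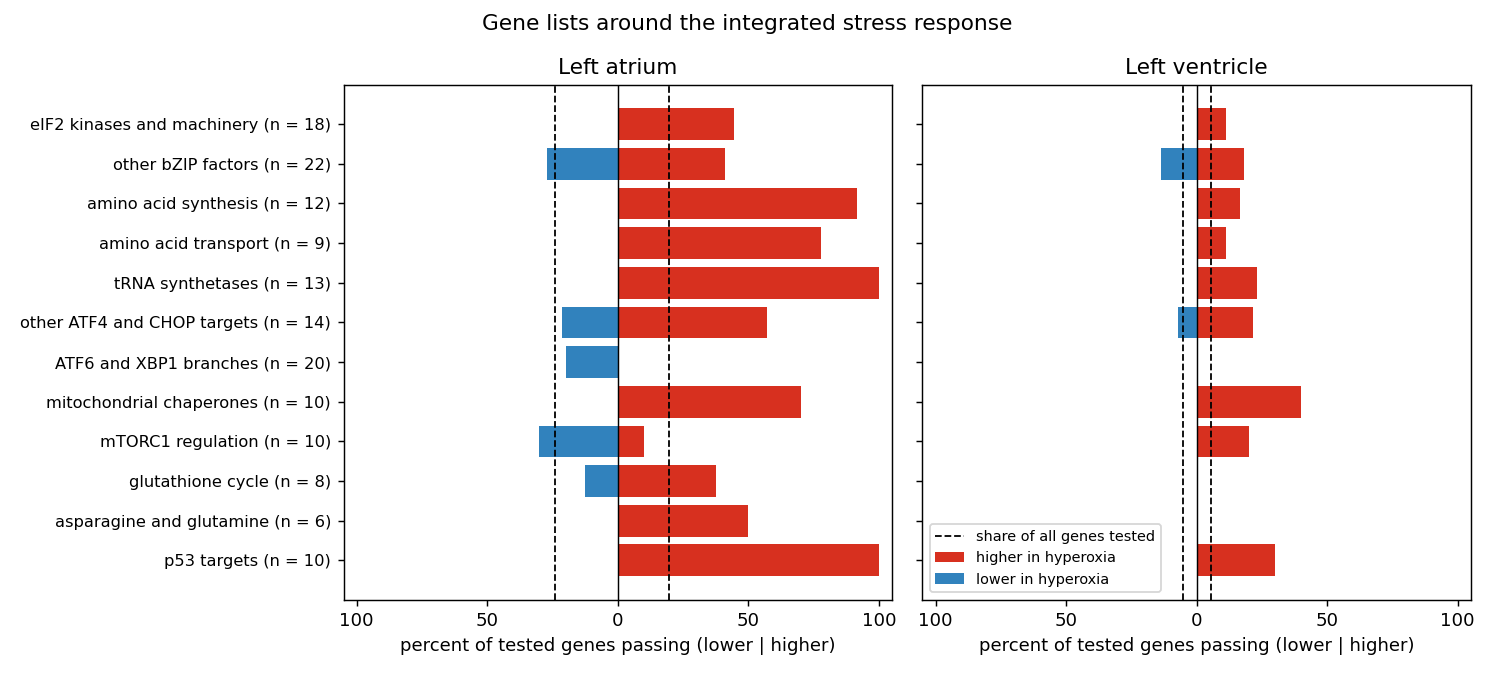
Percent of the tested genes of each list that passed higher (red, to the right) or lower (blue, to the left) in hyperoxia, by chamber; n is the number of genes tested and dashed lines mark the share over all 16598 genes. The tRNA and p53 lists reach 100% higher in the atrium, and the ATF6 and XBP1 list has no bar to the right in either chamber.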

How the data were processed

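The deposited files, 1 per library, hold the authors' read counts for each gene symbol, neither normalized nor filtered. The genome build GRCm38.p6 and the tools Salmon 1.3.0, featureCounts, Subread 2.0.1, STAR 2.7.6a and fastp 0.20.1 are named, without order, per the submitters' processing notes. A stranded mRNA kit was used per the labels; the sample labels and the series description name different RNA extraction kits. No library was a copy of another (smallest chi-square per degree of freedom within a group 13.26).

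The 10 members and all gene lists were chosen with earlier results of these data known. Counts were fitted in R 4.3.3 with edgeR 4.0.16: filterByExpr on the 4 groups, TMM scaling, and a robust quasi-likelihood model with 1 coefficient per group over all 20 libraries (common biological coefficient of variation 0.183). Every adjusted p is from its F-test, Benjamini-Hochberg corrected over 16598 genes, with 0.05 as the threshold. The square root of F served to turn each log2 difference into its standard error. Alternatives used DESeq2 1.42.0, limma 3.58.1, other scalings and filters, covariates and libraries left out. All members were named in every comparison, and up to 3 genes of each list with the smallest p in each hyperoxia comparison, plus Eif2ak1, Eif2ak2, Eif2ak3, Eif2ak4, Cebpb, Sesn2, Fgf21, Hspa5 and Cdkn1a. Length slopes used 11144 genes of at least 5 CPM. Correlations used log2 CPM with a prior count of 2. Limits for a count of 0 use 3 counts and cover counting error only. The test was checked on simulated counts. No column went unused (0).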

Additional observations from a re-analysis of the deposited data

Results flagged for a closer look

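Of 40 sets of 5 libraries (10 genes in 4 groups), 1 held a library far from the others: Ddit3 in room-air atrium 5 was at 14.8 CPM, with the nearest library at 19.5 CPM, a gap of 0.723 of the group's range against a limit of 0.71. Chance alone gives about 1 such set in 20. The other results listed here are the 8 members whose response differed between the chambers by a test of the difference itself, atrium minus ventricle on the log2 scale: Asns 3.87, Gdf15 3.86, Trib3 3.73, Chac1 2.34, Ddit3 2.34, Atf4 1.84, Atf5 1.61 and Ppp1r15a 1.05.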

How the results depend on the processing

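In the atrium, Atf4, Atf5, Ddit3, Asns, Trib3, Chac1, Gdf15 and Ppp1r15a passed in all 33 other settings, and Atf3 in 32. Over single libraries left out, the members passing numbered 9 to 9 in the atrium, 4 to 5 in the ventricle, 8 to 9 for the difference, 3 to 5 between room-air chambers and 8 to 9 between hyperoxic chambers. All genes passing ranged from 926 to 2527 in the ventricle (1813 with all libraries), with 1098, 926 and 1043 without hyperoxic ventricles 4, 5 and 6, and 1119, 1083 and 978 without room-air ventricles 1, 2 and 4. In the other comparisons, in the same order, they ranged from 6381 to 7761, 5146 to 6645, 8347 to 9538 and 7563 to 8393. Ventricular genes also numbered 2767 with DESeq2, 1021 without a filter, 3305 without the 3 tilted libraries, 257 with Y-linked reads as a covariate, 277 (1 member) where only libraries richer in Y-linked than in Xist reads were kept, 1047 with Y-linked reads and slope, and 96 (0 members) with Myl7. Atrial genes numbered 4536 with Y-linked reads and slope (7291 as fitted), and the difference gave 2634 with the slope and 2615 with both (6060 as fitted). The balance of genes higher and lower turned in the atrium, from 3271 and 4020 to 3678 and 3573 with upper-quartile scaling, 3863 and 3210 with a 1 CPM filter and 3931 and 3263 when ventricle 5 of the hyperoxic group was left out, and in the ventricle, from 936 and 877 to 801 and 1000 with upper-quartile scaling. The cause was not tested.

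Signs changed, on the log2 scale, for values that had not passed with all libraries. Ddit4 in the atrium ranged from -0.07 to 0.1 over libraries left out and was -0.16 in the Y-rich libraries alone. In the ventricle Atf3 was -0.08 in those libraries, Atf5 was 0.03 with Y-linked reads, 0.1 with the slope and 0.17 with both, and Atf4 was 0.08 with the slope and 0.08 with both. Between room-air chambers Chac1 was -0.01 with RLE factors, DESeq2 or the compared libraries alone, -0.04 with upper-quartile scaling, -0.09 with a 1 CPM filter, -0.14 without the tilted libraries, and -0.14 to 0.24 over libraries left out. There Ddit4 ranged from -0.38 to 0.02, and Ddit3 was 0.27 with the slope and 0.26 with both. Between room-air chambers Atf5 passed with the slope (0.36) and Atf3 without the tilted libraries (-0.33). The cause was not tested.

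Replicate numbers were not taken to pair the samples, since the labels do not say what they share and not every same-number correlation of deviations was above 0.1. These ran from -0.15 to 0.32 between the atrial groups and from -0.04 to 0.06 between the ventricular groups. Between chambers they were 0.03, 0.09, 0.32, 0.28 and 0.1 in room air, where numbers 3, 4 and 5 matched their own number best, and 0.02, 0.06, 0.04 and 0.16 in hyperoxia, where the shared numbers 1, 2, 4 and 5 also had the same side of Y-linked against Xist reads in both chambers. A shared pup therefore cannot be told from these labels. With the replicate number as a block, 7759 genes and 9 members passed in the atrium and 2596 genes and 4 members in the ventricle. With oxygen level and number as a block, 6185 genes and 8 members passed for the difference, 8965 and 4 between room-air chambers, and 7420 and 8 between hyperoxic chambers. Room-air Chac1, at 6 to 23 counts a library, limits how precisely its fold is known.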
